A study of Mus musculus with 6 samples.

Results

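Hepatic stellate cells are the pericytes of the liver sinusoid, and 10 transcription factors tied to their mesenchymal origin and their quiescent or activated state are described here in cells given obeticholic acid (OCA) before vasoactive intestinal peptide (VIP). The factors are Hoxa5, Gata4, Gata6, Hand2, Tcf21, Ets1, Lhx2, Sox9, Wt1 and Pparg. The set was named with earlier results of these data known; its members were then found in the deposited exon count table by gene symbol, and all 10 are among its 24940 genes. Polyadenylated RNA was sequenced from primary stellate cells of female C57BL/6JBomTac mice with the wild-type genotype. In the OCA+VIP group the cells received 10 µM OCA, an agonist of the bile acid receptor FXR, and in the DMSO+VIP group the same volume of the solvent DMSO at 1:1000, both on day 2 after isolation. After 3 h, 500 nM VIP, a neuropeptide hormone, was added to both groups for 3 h more, so all 6 libraries come from VIP-treated cells and the comparison is of OCA against its solvent in the presence of VIP. There were 3 libraries in each group, and nothing in the labels says that they are separate mice or dishes. The p-values therefore weigh the group difference against how much these libraries vary among themselves, and that variation may be technical.

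During development, stellate cells arise from the mesothelium and septum transversum mesenchyme, where WT1, GATA4, LHX2, HAND2 and TCF21 are active. LHX2, a LIM homeodomain protein, is known in mice for holding stellate cells in a non-fibrogenic state, and GATA4 likewise restrains liver fibrosis in mice. ETS1, GATA6 and the nuclear receptor PPARG are known as factors of the quiescent state, whereas SOX9 is known for driving matrix genes in activated stellate cells. HOXA5 is a homeodomain protein that marks regional identity of mesenchyme along the body axis. Such factors work in complexes: HOX proteins with PBX and MEIS proteins, GATA factors with FOG proteins, basic helix-loop-helix (bHLH) proteins such as HAND2 and TCF21 with E proteins, LHX2 with LDB cofactors, and PPARG with RXR receptors.

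Promoter sequences are given for Hoxa5, the member on which the expression results turn, and, for comparison, for Hand2 and Tcf21, the bHLH pair of the set. Each is the 250 bases before the RefSeq start site, 5′ to 3′ on the strand of the gene, on GRCm38.p6, the patch release of the mm10 build that the submitters' notes name. Capitals mark CANNTG, the E-box letters that bHLH dimers bind, and GATAA, the core letters that GATA factors bind, on either strand, and no capitals overlap 2 motifs. The windows are chr6:52204588-52204837 on the minus strand for Hoxa5, chr8:57320733-57320982 on the plus strand for Hand2 and chr10:22820144-22820393 on the minus strand for Tcf21.
Hoxa5: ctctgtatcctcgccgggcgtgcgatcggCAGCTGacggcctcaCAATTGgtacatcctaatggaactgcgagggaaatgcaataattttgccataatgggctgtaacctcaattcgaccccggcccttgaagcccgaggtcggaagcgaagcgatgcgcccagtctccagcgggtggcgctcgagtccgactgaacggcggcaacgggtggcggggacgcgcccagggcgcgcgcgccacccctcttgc
Hand2: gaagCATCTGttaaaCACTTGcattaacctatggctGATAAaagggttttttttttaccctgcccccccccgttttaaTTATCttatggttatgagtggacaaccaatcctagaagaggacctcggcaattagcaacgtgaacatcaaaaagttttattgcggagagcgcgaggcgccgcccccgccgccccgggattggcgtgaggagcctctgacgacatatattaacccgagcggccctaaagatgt
Tcf21: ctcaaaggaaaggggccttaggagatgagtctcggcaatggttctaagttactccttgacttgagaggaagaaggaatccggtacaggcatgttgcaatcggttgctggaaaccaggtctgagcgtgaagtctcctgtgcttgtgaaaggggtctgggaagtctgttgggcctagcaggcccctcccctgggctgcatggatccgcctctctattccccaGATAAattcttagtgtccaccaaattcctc

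The Hoxa5 window held 2 CANNTG matches and no GATAA match, the Hand2 window 2 of each, and the Tcf21 window 1 GATAA match and no CANNTG match. These letters are common: 66.2% of the 32851 RefSeq mouse promoter windows of the same length held CANNTG and 22.6% held GATAA on either strand. The letters TGACG, the short form of the cAMP response element, occurred once each in the Hoxa5 and Hand2 windows and in 17.8% of all windows. The full element TGACGTCA, which contains TGACG and was found in 1.55% of all windows, the nuclear receptor letters AGGTCA (14.0%) and the FXR-type inverted repeat of those letters with 1 base between (0.00609%) were absent from these 3 windows. A match is a description of the sequence only, and a missing one says nothing beyond these 250 bases. RefSeq promoter entries were matched for 5 of the 10 members, with 8 start sites in all, the other members with an entry being Lhx2 and Pparg.

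The column totals were 4534359.5, 9947968 and 5804978.5 counts in OCA+VIP libraries 1, 2 and 3, and 4574160.5, 2839106 and 3733035.5 counts in DMSO+VIP libraries 1, 2 and 3. Low counts lay mostly near multiples of 3, least so in OCA+VIP library 2. Of its counts from above 0 to 30, 65.4% lay within 0.5 of a multiple of 3, against 82.9% to 87.5% in the other 5 libraries. This share cannot tell steps of 3 from steps of 6, and a step of 6 was taken for all libraries. On that setting, a count of 18 over the 3 libraries of a group was taken as the limit that a count of 0 allows. It is 0.887 CPM (counts scaled to a column total of 1000000) in OCA+VIP and 1.61 CPM in DMSO+VIP. This limit and the intervals given here cover counting error or spread between libraries only. All 15 listed stellate cell markers were tested; 5 were higher in OCA+VIP, among them Ecm1 and Colec11, 2 were lower (Des and Hgf), and the summed level was 821 to 950 CPM in OCA+VIP and 736 to 976 CPM in DMSO+VIP. Hepatocyte markers moved with the groups: 8 of the 10 listed passed the filter on low counts, all 8 were higher, and the list summed to 228 to 385 CPM in OCA+VIP, against 67.8 to 75.3 CPM in DMSO+VIP, with the defining markers Cps1 and Tat at 0 in all 6 libraries. Of 9 listed portal fibroblast markers 2 were tested: Fbln2 was lower, with 9.82 ± 1.70 CPM in OCA+VIP and 39.9 ± 13.4 CPM in DMSO+VIP (SD, n = 3 each), and Gas6 did not pass. The other 8, with Thy1 at 0 throughout, summed to 9.45 to 11.4 CPM in OCA+VIP and 6.56 to 13.4 CPM in DMSO+VIP, which overlap, beside a sum of all 9 of 17.7 to 21.8 CPM in OCA+VIP and 43.3 to 61.8 CPM in DMSO+VIP. Of 8 listed lymphocyte markers 6 had no count, and the 1 tested, Cd79a, was higher. That list summed to 5.88 to 10.4 CPM in OCA+VIP and 0 to 1.31 CPM in DMSO+VIP. No endothelial marker passed, with sums of 9.37 to 20.7 CPM in OCA+VIP and 4.15 to 9.84 CPM in DMSO+VIP. No macrophage marker passed either (31.0 to 44.2 and 15.3 to 47.3 CPM). In such bulk samples, fewer cells of a type and less RNA per cell cannot be told apart. The part of these other cell types in the results on the lineage factors was not tested.

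Of the 10 factors, 1 changed. Hoxa5 was 2.61-fold lower in OCA+VIP, and 7 others that could be tested, among them Gata4, Ets1 and Lhx2, did not pass the test. All 10 had counts in at least 1 library, 8 passed the filter on low counts, and Wt1 and Pparg did not. The test was edgeR's quasi-likelihood F test with Benjamini-Hochberg adjustment over 11286 genes, of which 1328 (11.8%) passed an adjusted p of 0.05, with 646 (5.72%) higher and 682 (6.04%) lower in OCA+VIP. That total was 737 when OCA+VIP library 1 was left out, 751 when OCA+VIP library 3 was and 877 when DMSO+VIP library 1 was. The 1 of 8 tested members that passed (12.5%) is close to that background share, and 1 of the 8 also passed before adjustment at p under 0.05. The median log2 fold change of the 8 tested members was 0.16, beside 0.00 over all genes tested. For 5 of them, Lhx2, Gata4, Gata6, Tcf21 and Ets1, the whole 95% interval lay within 2-fold in either direction.

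**Figure D1:**
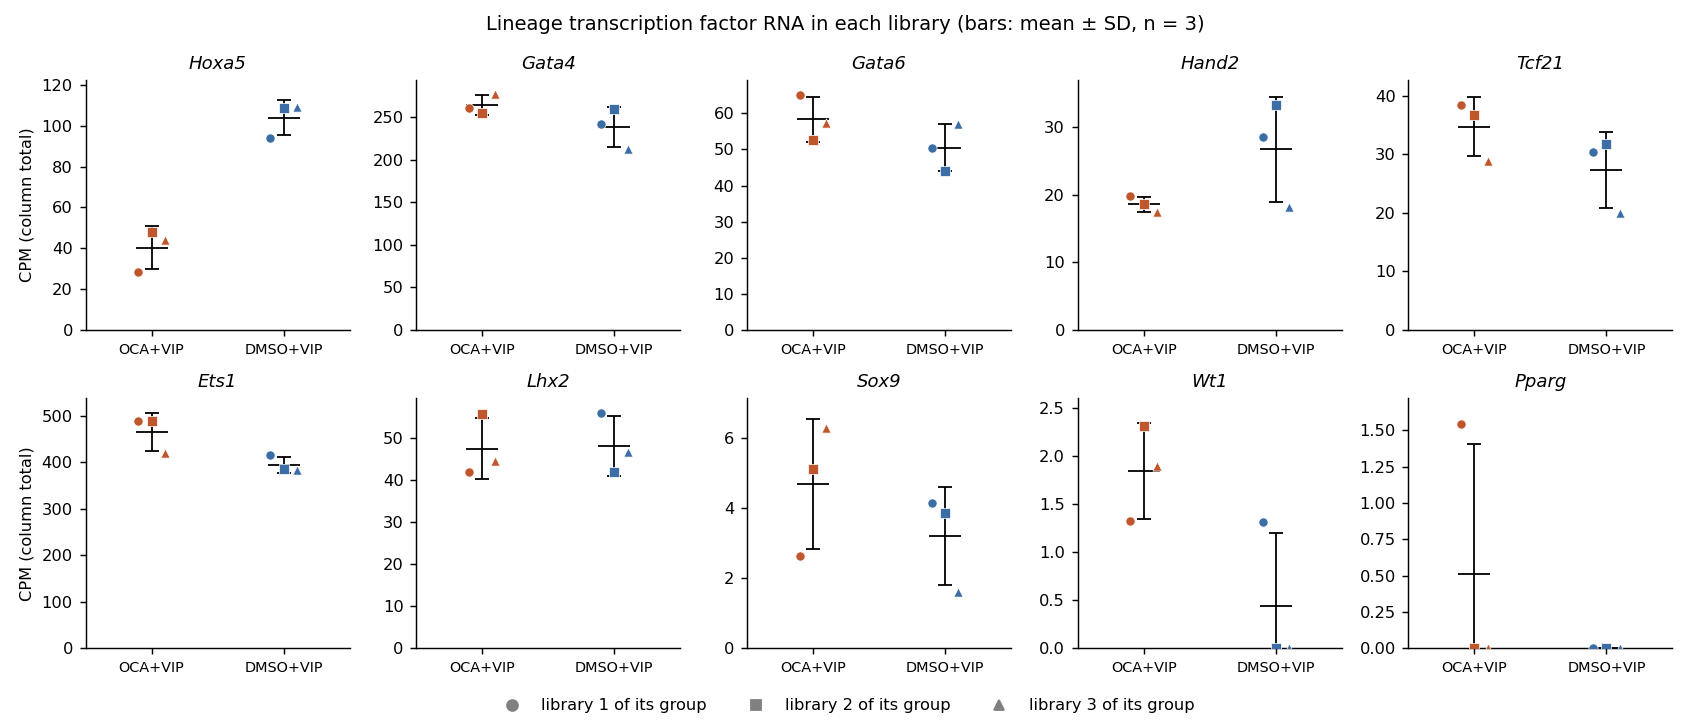
RNA of the 10 lineage factors in CPM of the column total (vertical axes start at 0 and differ in range), with 1 point per library in OCA+VIP (left) and DMSO+VIP (right) and bars at the mean ± SD of 3 libraries. Hoxa5 lies at 28.2 to 48.2 CPM in OCA+VIP and at 94.2 to 109 CPM in DMSO+VIP, while the groups of Gata4, Gata6, Hand2, Tcf21, Lhx2 and Sox9 overlap.

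Hoxa5 (transcript NM_010453, chromosome 6, 52201754 to 52204587, minus strand) was the member with a change, and it was lower in OCA+VIP in every library. Hoxa5 had 28.2, 48.2 and 44.1 CPM in OCA+VIP libraries 1 to 3, against 94.2, 109 and 109 CPM in DMSO+VIP libraries 1 to 3. The highest OCA+VIP library lay below the lowest DMSO+VIP library by a wide gap, and OCA+VIP library 1 was the lowest of all. Its mean was 40.2 ± 10.5 CPM in OCA+VIP and 104 ± 8.49 CPM in DMSO+VIP (SD, n = 3 each), from 863 and 1147 counts. The log2 fold change was -1.38 with a standard error of 0.17 and a 95% interval of -1.75 to -1.02, which as a fold is 0.383 with an interval of 0.298 to 0.493 (edgeR adjusted p = 1.31e-05). By p it ranked 68 among the 11286 genes, and by size 103 among the 682 that were lower, so many genes fell further. In the mouse annotation GENCODE M21, no exon base of Hoxa5 is shared with another gene, although the gene lies within the span of Hoxa3.

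**Figure D2:**
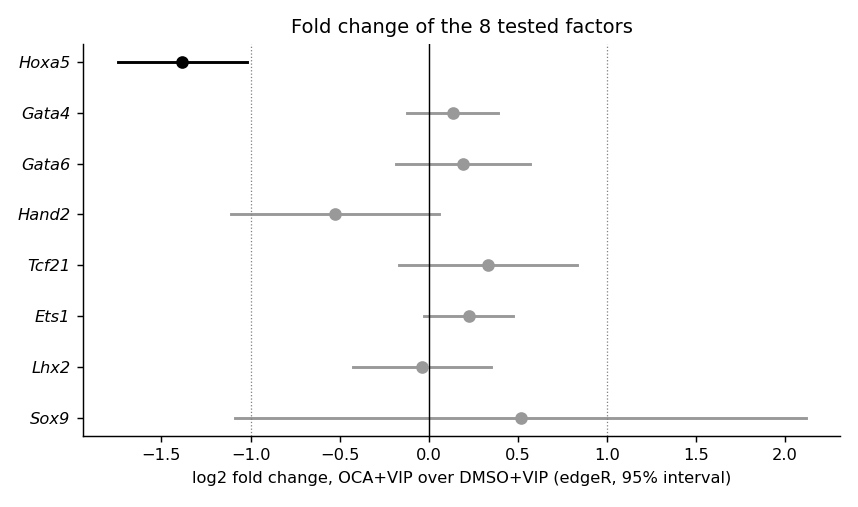
Log2 fold change, OCA+VIP over DMSO+VIP, of the 8 tested factors with 95% intervals from edgeR; dotted lines mark 2-fold. Hoxa5 at -1.38 (black) passed the test, and the intervals of the other 7 (grey) include 0, that of Sox9 reaching from -1.08 to 2.12.

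The other genes of the HoxA cluster did not pass the test in this comparison. The 11 HoxA genes of the table lie side by side on chromosome 6, and 4 were tested, among them Hoxa3, Hoxa4 and Hoxa5. Hoxa4, next to Hoxa5 in paralog order, averaged 8.16 ± 2.33 CPM in OCA+VIP and 8.48 ± 4.31 CPM in DMSO+VIP (SD, n = 3 each), with a log2 fold change of -0.06 (95% interval -1.12 to 1.01, edgeR adjusted p = 0.96). Hoxa3 averaged 4.56 ± 1.19 CPM in OCA+VIP and 4.39 ± 0.444 CPM in DMSO+VIP, with a log2 fold change of 0.06 (-1.38 to 1.51, edgeR adjusted p = 0.97). These levels are low and the intervals wide, and the difference between Hoxa5 and the other genes was not tested. Hoxa2 had 30.5 counts in all in OCA+VIP and 31.5 in DMSO+VIP and was not tested. Beyond Hoxa5 the cluster held few counts: of the 6 genes of paralog groups 6 to 13, 4 had no count in any library, Hoxa7 had 2.5 counts in OCA+VIP and 3 in DMSO+VIP, and Hoxa9 had 0.5 in OCA+VIP and 0 in DMSO+VIP.

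**Figure D3:**
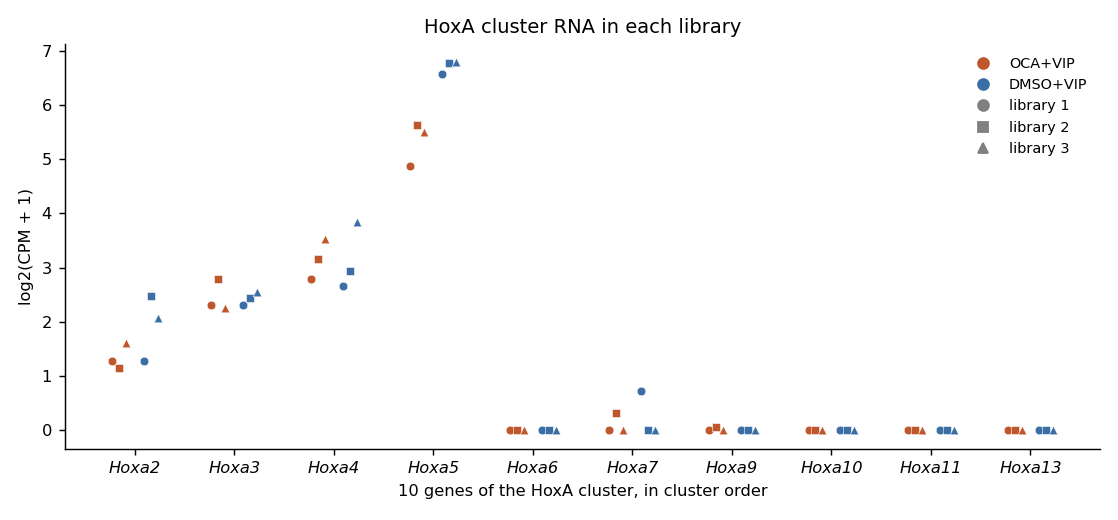
RNA of 10 HoxA genes in cluster order as log2(CPM + 1), with 1 point per library (OCA+VIP left, DMSO+VIP right for each gene). Hoxa5 has the highest points and is the gene where the OCA+VIP libraries lie clearly below the DMSO+VIP libraries, and the genes from Hoxa6 onward lie at or near 0.

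Over the whole Hox family, a list added after the values were seen, 39 genes were in the table and 18 had no count. Of the 9 tested, 1 passed, Hoxa5, beside 11.8% of all genes. Hoxa5 made up 27.1%, 37.5% and 34.7% of all Hox counts in OCA+VIP libraries 1 to 3, against 53.7%, 57.0% and 58.4% in DMSO+VIP libraries 1 to 3. It was the leading Hox transcript by count in every library of both groups, with a smaller share in each OCA+VIP library. The lead was narrow in OCA+VIP library 1, with 128 counts for Hoxa5 and 118.5 for Hoxb4. In the HoxB cluster, Hoxb4 averaged 20.4 CPM in OCA+VIP and 12.0 CPM in DMSO+VIP (log2 fold change 0.74, edgeR adjusted p = 0.157). Hoxb3 averaged 9.76 CPM in OCA+VIP and 19.7 CPM in DMSO+VIP (-1.03, edgeR adjusted p = 0.0996), and 52.9% of its exon bases overlap the antisense gene Hoxb3os, whose reads cannot be told apart from it without strand. The HoxC cluster had no tested gene and the HoxD cluster had 1, Hoxd8 (1.07, edgeR adjusted p = 0.556).

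Among the 5 PBX and MEIS genes reported here, which encode homeodomain partners with which HOX proteins bind DNA, Pbx3 rose. Pbx3 had 41.6, 36.3 and 43.0 CPM in OCA+VIP libraries 1 to 3, against 12.8, 16.2 and 21.2 CPM in DMSO+VIP libraries 1 to 3. All OCA+VIP libraries lay above all DMSO+VIP libraries, and the log2 fold change was 1.26 with a standard error of 0.25 (2.40-fold, edgeR adjusted p = 0.0019). Pbx2 and the 3 MEIS genes did not pass: the log2 fold change was 0.22 for Pbx2 (edgeR adjusted p = 0.824), -0.65 for Meis1 (0.364), 0.13 for Meis2 (0.836) and -0.05 for Meis3 (0.906).

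**Figure D4:**
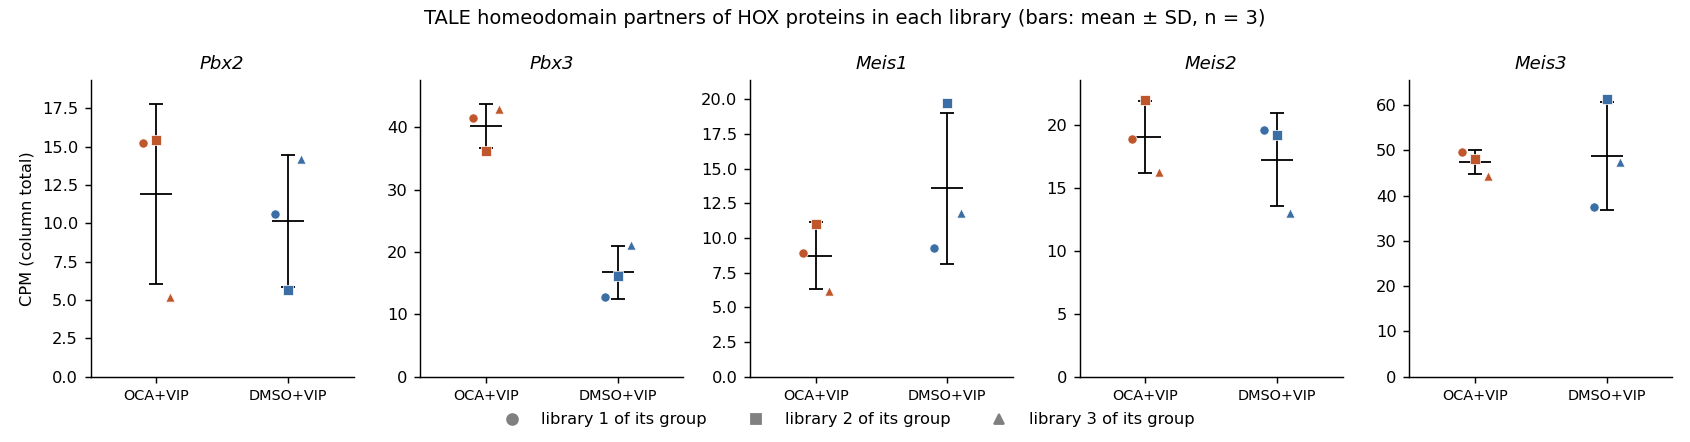
RNA of 5 PBX and MEIS genes in CPM of the column total (axes start at 0), with 1 point per library in OCA+VIP (left) and DMSO+VIP (right) and bars at the mean ± SD of 3 libraries. Pbx3 lies at 36.3 to 43.0 CPM in OCA+VIP and 12.8 to 21.2 CPM in DMSO+VIP, and the groups of the other 4 overlap.

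Gata4 and Gata6, the zinc finger factors of early liver mesenchyme, were well expressed and did not pass the test. Gata4 (chromosome 14, 63198914 to 63245271, minus strand) had 260, 254 and 276 CPM in OCA+VIP libraries 1 to 3, against 241, 259 and 213 CPM in DMSO+VIP libraries 1 to 3. DMSO+VIP library 2 lay between the OCA+VIP libraries, so the groups overlap. The means were 264 ± 11.5 CPM in OCA+VIP and 238 ± 23.5 CPM in DMSO+VIP (SD, n = 3 each), and the fold was 1.10 with a 95% interval of 0.920 to 1.31 (log2 fold change 0.14, standard error 0.12, edgeR adjusted p = 0.533). Gata6, on chromosome 18, had 64.9, 52.6 and 57.5 CPM in OCA+VIP libraries 1 to 3, against 50.4, 44.0 and 57.1 CPM in DMSO+VIP libraries 1 to 3. OCA+VIP library 1 was the highest and DMSO+VIP library 2 the lowest, with DMSO+VIP library 3 among the OCA+VIP values. The fold was 1.14, with an interval of 0.881 to 1.48 (log2 fold change 0.19, standard error 0.18, edgeR adjusted p = 0.551). For both genes the interval excludes a change of 2-fold in either direction. The FOG cofactors of GATA proteins did not pass either: the log2 fold change was -0.06 for Zfpm1 (edgeR adjusted p = 0.947) and -0.71 for Zfpm2 (edgeR adjusted p = 0.22). Their relative Gata2, better known in blood cells, was low, at 3.64 CPM in OCA+VIP and 1.99 CPM in DMSO+VIP (edgeR adjusted p = 0.611).

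The bHLH factors Hand2 and Tcf21 had estimates on opposite sides of 0, and neither passed the test. Hand2 (chromosome 8, 57320983 to 57324517, plus strand) had 19.7, 18.5 and 17.5 CPM in OCA+VIP libraries 1 to 3, against 28.5, 33.3 and 18.2 CPM in DMSO+VIP libraries 1 to 3. The OCA+VIP libraries were close together, and DMSO+VIP library 3 lay among them while the other DMSO+VIP libraries were higher. The fold was 0.695, with an interval of 0.464 to 1.04 (log2 fold change -0.53, standard error 0.28, edgeR adjusted p = 0.246). Of the Hand2 exon bases, 19.6% overlap the antisense RNA Hand2os1, and without strand their reads cannot be told apart. Tcf21 (chromosome 10, 22817275 to 22820128, minus strand), whose product marks fibroblast and pericyte precursors in several organs, had 38.4, 36.7 and 28.9 CPM in OCA+VIP libraries 1 to 3, against 30.4, 31.7 and 20.0 CPM in DMSO+VIP libraries 1 to 3. Library 3 was the lowest in each group and the groups overlap, with a fold of 1.26 and an interval of 0.890 to 1.78 (log2 fold change 0.33, standard error 0.24, edgeR adjusted p = 0.415).

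The E proteins, with which HAND2 and TCF21 form DNA-binding dimers, and the ID proteins, which block such dimers, did not pass. Among the E proteins the log2 fold change was -0.42 for Tcf3 (edgeR adjusted p = 0.187), 0.24 for Tcf4 (0.592) and 0.06 for Tcf12 (0.856). Tcf3 had 36.8, 31.3 and 34.4 CPM in OCA+VIP libraries 1 to 3, against 43.9, 47.0 and 44.3 CPM in DMSO+VIP libraries 1 to 3, so its groups do not overlap although it failed the adjusted test. Among the inhibitors the estimates were all above 0, at 1.51 for Id1 (edgeR adjusted p = 0.317), 0.38 for Id2 (0.36) and 0.49 for Id3 (0.33). Hand1, the close relative of Hand2, had no count in any library.

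Lhx2 (chromosome 2, 38351308 to 38369737, plus strand) was almost equal between groups. Lhx2 had 42.1, 55.9 and 44.7 CPM in OCA+VIP libraries 1 to 3, against 56.0, 41.9 and 46.7 CPM in DMSO+VIP libraries 1 to 3. The highest and the lowest values of the 6 both belong to DMSO+VIP libraries. Its fold was 0.974, with an interval of 0.746 to 1.27 (log2 fold change -0.04, standard error 0.19, edgeR adjusted p = 0.927). Ldb1, which encodes the cofactor that bridges LIM homeodomain proteins, rose: it had 97.5, 98.7 and 99.3 CPM in OCA+VIP libraries 1 to 3, against 55.5, 74.3 and 72.6 CPM in DMSO+VIP libraries 1 to 3. The OCA+VIP libraries were nearly equal and lay above all DMSO+VIP libraries, with a log2 fold change of 0.53 and a standard error of 0.15 (1.45-fold, edgeR adjusted p = 0.0253). Ldb1 no longer passed without OCA+VIP library 1 (adjusted p = 0.0936) or 3 (0.0907) and without DMSO+VIP library 1 (0.135). Its relative Ldb2, named after its values were seen, had no count in the OCA+VIP libraries, against 6, 12.5 and 12.5 counts in DMSO+VIP libraries 1 to 3. The pooled DMSO+VIP level of Ldb2 was 3.13 times the OCA+VIP limit of a count of 0, which is 18 counts over the group. This ratio allows no error in the 31 DMSO+VIP counts, so it is not a lower bound of the fold. Ldb2 failed the filter on low counts, and without that filter its edgeR adjusted p was 0.0551.

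Ets1 (chromosome 9, 32696042 to 32757820, plus strand) was the most abundant of the 10 and did not pass the test. Ets1 had 489, 489 and 419 CPM in OCA+VIP libraries 1 to 3, against 415, 386 and 384 CPM in DMSO+VIP libraries 1 to 3. Every OCA+VIP library lay above every DMSO+VIP library, but OCA+VIP library 3 exceeded DMSO+VIP library 1 by little. The means were 466 ± 40.3 CPM in OCA+VIP and 395 ± 17.7 CPM in DMSO+VIP (SD, n = 3 each), and the fold was 1.17 with an interval of 0.980 to 1.39 (log2 fold change 0.22, standard error 0.12, edgeR adjusted p = 0.255). Among all tested genes 16.8% had every OCA+VIP library above every DMSO+VIP library and 13.9% had every one below, 30.6% in all. Of the 8 tested members, 1 was of the first kind (Ets1) and 1 of the second (Hoxa5), which is 2 of 8.

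Its paralog Ets2, which binds the same core DNA letters, fell. Ets2 had 183, 293 and 224 CPM in OCA+VIP libraries 1 to 3, against 584, 537 and 600 CPM in DMSO+VIP libraries 1 to 3. The groups are far apart, with means of 233 ± 55.8 CPM in OCA+VIP and 574 ± 33.0 CPM in DMSO+VIP (SD, n = 3 each), and the log2 fold change was -1.32 with a standard error of 0.14 (2.50-fold lower, edgeR adjusted p = 1.37e-06). Elf2, another ETS family member, averaged 142 ± 19.5 CPM in OCA+VIP and 91.2 ± 26.1 CPM in DMSO+VIP and rose (log2 fold change 0.62, standard error 0.17, edgeR adjusted p = 0.0177). The Elf2 call was lost without OCA+VIP library 1 (adjusted p = 0.115) and without DMSO+VIP library 1 (0.0719) or 2 (0.0998). Elk1, an ETS factor that works with serum response factor, averaged 35.5 ± 13.3 CPM in OCA+VIP and 54.2 ± 2.64 CPM in DMSO+VIP (log2 fold change -0.62, edgeR adjusted p = 0.0652), and passed without OCA+VIP library 2 (0.0092). Of the 56 listed relatives of the 10 factors, 41 had counts, 23 were tested and 3 passed (13%, beside 11.8% of all genes). Elf2 was higher, and Ets2 and Ppard were lower. Ppard, a paralog of Pparg, averaged 219 ± 31.4 CPM in OCA+VIP and 285 ± 22.7 CPM in DMSO+VIP (-0.39, standard error 0.12, edgeR adjusted p = 0.0383). Its call was lost without OCA+VIP library 1 (0.123) or 3 (0.179) and without DMSO+VIP library 2 (0.121) or 3 (0.154). The count of 3 was 1 without OCA+VIP library 1 or DMSO+VIP library 2.

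Sox9, Wt1 and Pparg were at or near the limit of what these libraries can measure. Sox9 (chromosome 11, 112782210 to 112787757, plus strand) had 2.65, 5.13 and 6.29 CPM in OCA+VIP libraries 1 to 3, against 4.15, 3.87 and 1.61 CPM in DMSO+VIP libraries 1 to 3. These values come from 12, 51 and 36.5 counts in OCA+VIP and 19, 11 and 6 counts in DMSO+VIP, the last being 1 step. The groups overlap, and the interval of the fold, 0.472 to 4.34 around 1.43, covers a fall and a rise of over 2-fold (log2 fold change 0.52, standard error 0.77, edgeR adjusted p = 0.731). SOX9 is also a defining factor of bile duct cells: of the 7 listed cholangiocyte markers 4, among them Krt7, Cftr and Tspan8, had no count in any library, and the list summed to 12.4 to 15.9 CPM in OCA+VIP and 2.29 to 13.3 CPM in DMSO+VIP, mostly from Krt19.

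Wt1 (chromosome 2, 105126529 to 105173614, plus strand) had 6, 23 and 11 counts in OCA+VIP libraries 1 to 3, against 6, 0 and 0 counts in DMSO+VIP libraries 1 to 3. As a rate these are 1.32, 2.31 and 1.89 CPM in OCA+VIP, against 1.31, 0 and 0 CPM in DMSO+VIP. The lowest OCA+VIP library and the highest DMSO+VIP library held the same count, so the order of the groups rests on the scaling of 1 step. The pooled level was 1.97 CPM in OCA+VIP and 0.538 CPM in DMSO+VIP; the sum of 6 counts in DMSO+VIP is under the limit of 18, so no fold is given. Without the filter on low counts, edgeR gave an adjusted p of 0.573. Markers of mesothelial cells, a WT1-positive cell type of the liver surface, were at or near 0. Of 7 listed genes in the table, 5, Msln, Upk3b, Upk1b, Lrrn4 and Krt18, had no count in any library. The list summed to 0 to 0.603 CPM in OCA+VIP and 0 to 0.656 CPM in DMSO+VIP. The part of mesothelial cells in the Wt1 counts was not tested.

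Pparg (chromosome 6, 115361144 to 115490401, plus strand) had 7 counts in OCA+VIP library 1 and no count in the other 5 libraries, so both groups were under the limit and no fold is given. Without the filter on low counts, its edgeR adjusted p was 0.472. Its dimer partner Rxra averaged 131 ± 9.09 CPM in OCA+VIP and 162 ± 13.5 CPM in DMSO+VIP, and did not pass (log2 fold change -0.32, edgeR adjusted p = 0.099). Over all 33 listed partners and cofactors of the 10 factors, 28 were tested and 4 passed (14.3%, beside 11.8% of all genes). Of the 4, 2 were higher (Pbx3 and Ldb1) and 2 lower. The median log2 fold change of the 28 was 0.09. Without OCA+VIP library 1 the count of 4 was 2.

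Lipid genes known as PPARG targets, mainly from fat cells, went in both directions. Of 27 listed, 17 were tested and 5 passed (29.4%, beside 11.8% of all genes), 3 higher and 2 lower, with a median log2 fold change of 0.31. Dgat2, which encodes an enzyme of the last step of triglyceride synthesis, had 54.6, 52.8 and 43.2 CPM in OCA+VIP libraries 1 to 3, against 19.3, 28.5 and 20.9 CPM in DMSO+VIP libraries 1 to 3. Its groups do not overlap, and it rose (log2 fold change 1.13, standard error 0.22, edgeR adjusted p = 0.00176). Pdk4, whose product holds back pyruvate oxidation, averaged 42.0 ± 4.50 CPM in OCA+VIP and 16.3 ± 6.70 CPM in DMSO+VIP and rose (1.34, standard error 0.27, edgeR adjusted p = 0.00198). Angptl4, a secreted inhibitor of lipoprotein lipase, averaged 15.6 ± 3.98 CPM in OCA+VIP and 4.85 ± 2.24 CPM in DMSO+VIP and rose (1.70, standard error 0.46, edgeR adjusted p = 0.0183), a call lost without OCA+VIP library 1 (0.129) or 3 (0.0524) and without DMSO+VIP library 1 (0.0712) or 3 (0.0672). Agpat2, of an earlier step of the same synthesis as Dgat2, averaged 22.0 ± 3.99 CPM in OCA+VIP and 41.3 ± 4.11 CPM in DMSO+VIP and fell (-0.92, standard error 0.22, edgeR adjusted p = 0.00868). The fifth gene, Dgat1, named because it completes the count, fell too (-0.82, edgeR adjusted p = 0.0316), and its call was lost without OCA+VIP library 1 (0.157) and without DMSO+VIP library 1 (0.188) or 3 (0.081). The count of 5 was 3 without OCA+VIP library 1 and without DMSO+VIP library 1 or 3. Hepatocytes, whose markers were higher in OCA+VIP as given above, also express several of these lipid genes, and their part in these values was not tested. The level of Pparg itself was too low to be set beside these values, and this list too was chosen with earlier results known.

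Genes known as SOX9 targets, mostly matrix and adhesion genes, went lower where they passed. Of 23 listed, 17 had counts and 10 were tested, with Acan, Col9a1 and Col11a1 among those that had no count. Of the 10, 4 were lower and 0 higher (40%, beside 6.04% lower and 5.72% higher among all genes). The median log2 fold change was -0.43. The list was chosen with earlier results of these data known, and the share describes the tested genes only. Fn1, which encodes fibronectin, had 58.9, 73.0 and 42.6 CPM in OCA+VIP libraries 1 to 3, against 155, 104 and 117 CPM in DMSO+VIP libraries 1 to 3. The groups do not overlap, and Fn1 fell 2.18-fold (log2 fold change -1.13, standard error 0.18, edgeR adjusted p = 0.000164). Vim, for the filament protein vimentin, fell, with 543 ± 23.7 CPM in OCA+VIP and 911 ± 58.1 CPM in DMSO+VIP (-0.76, edgeR adjusted p = 0.000269). Tnfrsf11b, for the decoy receptor osteoprotegerin, fell, with 23.8 ± 2.88 CPM in OCA+VIP and 52.9 ± 12.3 CPM in DMSO+VIP (-1.17, edgeR adjusted p = 0.000961). Gpnmb, a membrane glycoprotein gene, fell, with 116 ± 17.1 CPM in OCA+VIP and 177 ± 14.8 CPM in DMSO+VIP (-0.63, edgeR adjusted p = 0.00243). The other 6 tested did not pass. The log2 fold change was -0.04 for Ctgf, for a matricellular protein (edgeR adjusted p = 0.893), and -0.08 for Timp1 (0.9). It was -0.23 for Sox6 (0.866), -1.56 for Sox5 (0.363), 0.72 for Col11a2 (0.353) and 0.10 for Col27a1 (0.963). Spp1, for osteopontin, had 36.5 counts in OCA+VIP and 6 in DMSO+VIP and was not tested. Sox9 itself was tested at a low level (log2 fold change 0.52, standard error 0.77, edgeR adjusted p = 0.731). That estimate is too uncertain to be set beside these values.

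Of 20 listed genes known as WT1 targets, 13 were tested and 2 passed, both lower (15.4%, beside 11.8% of all genes). The median log2 fold change was -0.19. Sulf2, which encodes an enzyme that trims heparan sulfate, had 40.4, 64.4 and 35.4 CPM in OCA+VIP libraries 1 to 3, against 131, 119 and 117 CPM in DMSO+VIP libraries 1 to 3. The groups are well apart, and Sulf2 fell 2.64-fold (log2 fold change -1.40, standard error 0.17, edgeR adjusted p = 1.13e-05). Podxl, for podocalyxin, averaged 9.42 ± 5.45 CPM in OCA+VIP and 24.6 ± 11.5 CPM in DMSO+VIP and fell (-1.40, standard error 0.40, edgeR adjusted p = 0.0238), a call lost without OCA+VIP library 1 (0.106) or 3 (0.0909) and without DMSO+VIP library 1 (0.227), which leaves a count of 1. Spry1, an inhibitor of receptor tyrosine kinase signalling, averaged 18.7 ± 6.31 CPM in OCA+VIP and 9.16 ± 1.72 CPM in DMSO+VIP and did not pass (1.02, edgeR adjusted p = 0.0753), nor did the receptor gene Egfr (-0.35, edgeR adjusted p = 0.217).

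Other transcription factors of stellate and related mesenchyme, beyond the 10, were read from a list of 34. Of these, 25 were tested and 3 passed (12%, beside 11.8% of all genes). Foxf1, a forkhead factor of visceral mesenchyme that in mice is needed for stellate cell activation, had 42.2, 73.2 and 45.1 CPM in OCA+VIP libraries 1 to 3, against 112, 128 and 110 CPM in DMSO+VIP libraries 1 to 3. The groups do not overlap, and Foxf1 fell 2.20-fold (log2 fold change -1.14, standard error 0.17, edgeR adjusted p = 0.000107). Cebpb, a bZIP factor of the acute response, fell, with 171 ± 22.3 CPM in OCA+VIP and 305 ± 21.7 CPM in DMSO+VIP (-0.85, standard error 0.13, edgeR adjusted p = 0.000115), and 20.7% of its exon bases overlap Tmem189 on the other strand. Snai1, for a repressor of epithelial genes, rose, with 61.4 ± 8.01 CPM in OCA+VIP and 35.0 ± 8.67 CPM in DMSO+VIP (0.80, standard error 0.21, edgeR adjusted p = 0.0137). The Snai1 call was lost without OCA+VIP library 1 (adjusted p = 0.0988) or 3 (0.0539) and without DMSO+VIP library 1 (0.0842) or 2 (0.0539). Nfib, a nuclear factor I gene, averaged 37.9 ± 8.19 CPM in OCA+VIP and 55.9 ± 3.88 CPM in DMSO+VIP (-0.57, edgeR adjusted p = 0.0541), and passed without OCA+VIP library 2 (0.0331), when the count was 7. Among factors of the same tissue that did not pass were Tbx20 (edgeR adjusted p = 0.452) and Nr2f2 (0.985). Zeb2 (log2 fold change -0.35, edgeR adjusted p = 0.0685), Cebpd (-0.40, 0.0674) and Runx2 (2.75, 0.108) did not pass either. Their groups do not overlap, with 105 Runx2 counts in OCA+VIP and 9 in DMSO+VIP. Of the 25 tested, 3 had every OCA+VIP library above every DMSO+VIP library and 5 below, beside 16.8% and 13.9% of all genes.

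**Figure D5:**
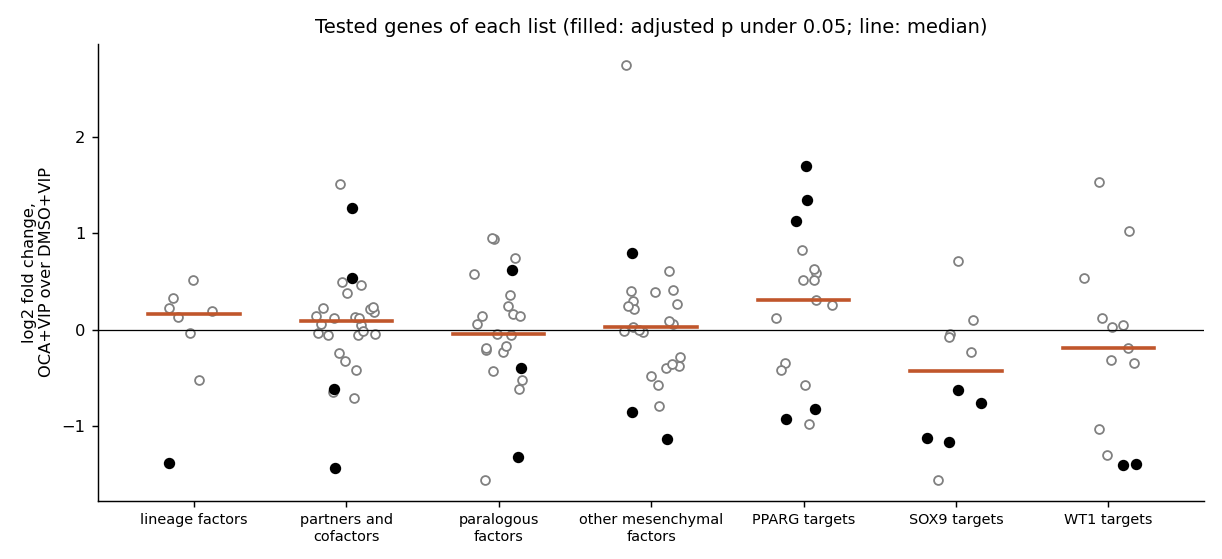
Log2 fold change, OCA+VIP over DMSO+VIP, of every tested gene in the 10 lineage factors and 6 related lists; filled points passed an edgeR adjusted p of 0.05 and the horizontal line is the median. Among the lineage factors 1 point of 8 is filled, Hoxa5, and the 4 filled SOX9 targets all lie below 0.

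Between genes, levels were compared as CPM per kilobase of exon, as listed in the table for 1 transcript per gene. In OCA+VIP, Ets1 (92.2 ± 7.97 CPM per kilobase) stood first and Gata4 (77.7 ± 3.38) next, without overlap between them. Tcf21 (28.4 ± 4.12), Hoxa5 (21.4 ± 5.62), Lhx2 (20.8 ± 3.21) and Gata6 (18.3 ± 1.95) followed, each overlapping its neighbour in this order. Then came Hand2 (8.33 ± 0.505), apart from both neighbours, and last Sox9 (1.13 ± 0.449), Wt1 (0.599 ± 0.161) and Pparg (0.288 ± 0.499), which overlap (SD, n = 3 each). Most of the set thus kept to a mid to high level, with a low tail of 3 genes.

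In DMSO+VIP the order was Ets1 (78.2 ± 3.51 CPM per kilobase), Gata4 (70.0 ± 6.92), Hoxa5 (55.5 ± 4.53), Tcf21 (22.4 ± 5.26), Lhx2 (21.1 ± 3.12), Gata6 (15.9 ± 2.05), Hand2 (12.0 ± 3.45), Sox9 (0.776 ± 0.337), Wt1 (0.142 ± 0.246) and Pparg at 0. Neighbours overlap for Ets1 and Gata4, for Tcf21 and Lhx2, for Gata6 and Hand2 and among the last 3. Hoxa5 therefore stood alone between Gata4 and Tcf21 in DMSO+VIP, and within the group of Tcf21, Lhx2 and Gata6 in OCA+VIP. By the mean of all 6 libraries, Ets1 lay above 92.8% of the genes with any count and Gata4 above 91.4%. The same share was 82.5% for Hoxa5, 57.4% for Hand2 and 11.1% for Pparg.

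The genes whose pattern was most like that of Hoxa5 over the 6 libraries, by Pearson correlation of log2 CPM among 10706 genes, were Zfp626 (r = 0.9965), Denr (r = 0.9961) and Marcks (r = 0.9951). With 6 libraries in 2 groups such values are a description only, since the points share the group difference and the depth of each library. Marcks, for a substrate of protein kinase C at the plasma membrane, fell (log2 fold change -1.22, edgeR adjusted p = 0.00011). Denr, for a translation reinitiation factor, fell slightly (-0.39, edgeR adjusted p = 0.0376), a call lost without any 1 of OCA+VIP libraries 1 (0.153) and 3 (0.0827) and DMSO+VIP libraries 1 (0.072), 2 (0.0875) and 3 (0.113). Zfp626, a zinc finger gene, did not pass (-1.38, edgeR adjusted p = 0.0635).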

How the data were processed

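Polyadenylated RNA of 6 libraries of mouse stellate cells was analysed, 3 OCA+VIP and 3 DMSO+VIP. The authors deposited 1 table of expected counts per gene over exons, not all whole and not scaled, in the layout of HOMER. The submitters' processing notes name mm10, STAR, HOMER and DESeq2 with no role or version, and strand use and duplicate removal are not given in the sources used here. Columns were assigned to groups by name, and libraries carry the column numbers, which were not matched to the letters of the sample titles.

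Deposited counts were rounded, and edgeR 4.0.16 under R 4.3.3 was run on them (TMM, filterByExpr with a minimum count of 10 and minimum total of 15, quasi-likelihood F test, two-sided, Benjamini-Hochberg, threshold 0.05, residual df 4, common biological coefficient of variation 0.198). Standard errors were derived from the fold change and F. CPM are counts over the column total, without TMM. The log2 CPM used for the correlations differ, being scaled with TMM and with a prior count added. Correlation of log2 CPM was 0.922 to 0.969 within groups and 0.895 to 0.943 between groups. Alternatives used limma 3.58.1 and DESeq2 1.42.0. The steps were tested on simulated data. Exon overlaps came from GENCODE M21 and promoters from RefSeq.

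The members and lists were chosen with earlier results of these data known. Named were the 10 members, from each of 6 lists the tested genes with the lowest p (up to 4, averaging 1 CPM or more), and the 3 genes most correlated with the member of smallest p, 37 in all. Dgat1, Ldb2, the Hox genes and other list members given were named after their values were seen. The results of some genes are not reported here.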

Additional observations from a re-analysis of the deposited data

How the results depend on the processing

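Hoxa5 was the 1 member called under every one of the 15 alternatives, with a log2 fold change of -1.50 to -1.22 and adjusted p up to 0.000318, and no other member passed under any of them. Lhx2, not called, changed sign on leaving out OCA+VIP library 1 (0.01), OCA+VIP library 3 (0.0018) or DMSO+VIP library 1 (0.076), in a range of -0.13 to 0.076. With counts divided by 6, Sox9 failed the filter.

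Over all genes DESeq2 called 2245 (1130 higher, 1115 lower), and leaving out 1 library gave 737 to 1478 (310 to 745 higher, 395 to 733 lower), the lowest without OCA+VIP library 1. DESeq2 called 7 partners, 6 relatives and 8 other mesenchymal factors (3 higher, 5 lower). No filter gave 5 relatives, and upper-quartile scaling 6 other mesenchymal factors. Leaving out 1 library gave 2 to 5 partners, 1 to 4 relatives, 2 to 7 other mesenchymal factors, 3 to 6 PPARG targets and 1 to 2 WT1 targets, while SOX9 targets stayed at 4. The cause was not tested. Of 27 other named genes, 22 were called and 8 of these lost the call on leaving out 1 library.

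With the replicate block the members called were 1, Hoxa5 had a log2 fold change of -1.42 (edgeR adjusted p = 1.9e-05) and 1118 genes passed. Deviations of same-numbered libraries from their group means had correlations of -0.05 to 0.03 (different numbers -0.03 to 0.08). These values show no sign of pairing by number. With so few shallow libraries they cannot settle it, and the labels do not either. Under the block Ppard, Denr and Dgat1 were not called and Elk1 was. Depth limits Sox9, Wt1 and Pparg: 1 step of counts is 0.603 to 1.32 CPM in OCA+VIP (library 2, the lowest, is less stepped) and 1.31 to 2.11 CPM in DMSO+VIP.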
